A study of Homo sapiens with 12 samples.

Results

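ID1, ID2, ID3 and ID4 encode the family of helix-loop-helix repressors known as inhibitors of DNA binding. Their levels were read from RNA of a human podocyte line treated with 3 calcineurin inhibitors. The members were taken by name: the 4 entries whose Ensembl identifiers map to ID1 (ENSG00000125968), ID2 (ENSG00000115738), ID3 (ENSG00000117318) and ID4 (ENSG00000172201), of 62262 genes in the table. All 4 were among the 19784 genes with enough counts to be tested. The family was selected on measured values of these libraries: its levels in tacrolimus cultures were already known to lie above those in control cultures. Differences of the ID genes that involve tacrolimus are therefore given as a description, with their interval and with a count of those called, and nothing is concluded from that count.

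The cells came from an established line of human podocytes, the epithelium that wraps glomerular capillaries. The line was immortalized with a temperature-sensitive form of the SV40 T gene, grown at 33°C and then kept at 37°C for 7 to 10 days, where that gene is inactive and the cells differentiate, in medium with 10% fetal bovine serum. Cultures then received 100 nM tacrolimus (TAC), 100 nM cyclosporine A (CSA), 100 nM voclosporin (VCS) or the solvent DMSO for 24 h, with 3 libraries in each of the 4 groups. All 12 libraries share this 1 line, and no source used here says whether replicates were separate cultures, so the p-values measure only the spread between these libraries.

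ID proteins have a helix-loop-helix domain without the basic region that contacts DNA. They pair with E proteins (TCF3, TCF4 and TCF12) and with other basic helix-loop-helix factors, and the pairs cannot bind E-box sites, so differentiation programs driven by those factors are held back. Bone morphogenetic proteins (BMPs), acting through SMAD1, SMAD5 and SMAD9, are the best known inducers of ID transcription, and BMP7 is a known ligand of this pathway in the kidney. Calcineurin, a phosphatase switched on by calcium, sends NFAT transcription factors to the nucleus. TAC inhibits it in complex with FKBP proteins, and CSA and its analog VCS do so in complex with cyclophilins. VCS differs from CSA by a changed side chain on a single amino acid of the ring.

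Library totals ran from 28808213 to 36077072 counts. Mitochondrial transcripts took 9.68 to 13.4% of the counts in the 4 libraries numbered 3, against 5.82 to 8.12% in the other 8. Of the defining podocyte genes, NPHS1 (nephrin) had 1 to 11 counts in a library, PTPRO 2 to 13 and WT1 20 to 50, while SYNPO (synaptopodin) was at 41.9 to 67.3 CPM. CPM is the count of a gene scaled to a common library size. The slit diaphragm adaptor gene CD2AP was at 86.1 to 136 CPM, PODXL (podocalyxin) at 17.6 to 33.7 and ACTN4 (alpha-actinin) at 1345.1 to 1675.1. NPHS1 and PTPRO were thus nearly absent while other podocyte genes were well detected, and the cells are called podocytes here after their label. PAX8, a marker of parietal epithelium, was at 250.5 to 475.8 CPM. The summed level of the 4 parietal markers was 675.6 to 771.2 CPM in TAC, 801 to 986.3 in CSA, 733.7 to 890.9 in VCS and 782.1 to 928.5 in DMSO. The sum of 6 airway epithelial markers was 7.98 to 9.67 CPM in TAC, 6.87 to 8.18 in CSA, 25.7 to 38 in VCS and 16.8 to 32.6 in DMSO, with none of the 6 at 0 in any library. Of 4 mesangial and fibroblast markers, COL1A1 was at 3294.5 to 5454.8 CPM and PDGFRB at 17.7 to 27.3. COL1A2 was at 0.811 to 10.5 CPM and ITGA8 had 0 to 7 counts in a library. The part of these sets of markers in the ID values was not tested.

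The promoters of the 4 genes are shown because the members stood together in the data. Each window covers 250 bases before and 50 bases after the transcript start of RefSeq, on GRCh38.p14, and all 4 genes were found by symbol. Capitals mark matches, on either strand, to 4 motifs: GGCGCC and GGAGCC, GC-rich elements bound by SMAD1 and SMAD5, GTCTG, a SMAD4 box, and GGAAA, the core of NFAT sites.
ID1 (chr20:31605039-31605338, plus strand): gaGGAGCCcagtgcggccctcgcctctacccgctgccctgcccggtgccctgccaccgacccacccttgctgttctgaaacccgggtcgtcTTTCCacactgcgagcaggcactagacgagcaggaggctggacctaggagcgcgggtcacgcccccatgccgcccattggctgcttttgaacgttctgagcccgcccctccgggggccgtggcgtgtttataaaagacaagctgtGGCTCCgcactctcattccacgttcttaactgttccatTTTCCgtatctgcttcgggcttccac
ID2 (chr2:8681806-8682105, plus strand): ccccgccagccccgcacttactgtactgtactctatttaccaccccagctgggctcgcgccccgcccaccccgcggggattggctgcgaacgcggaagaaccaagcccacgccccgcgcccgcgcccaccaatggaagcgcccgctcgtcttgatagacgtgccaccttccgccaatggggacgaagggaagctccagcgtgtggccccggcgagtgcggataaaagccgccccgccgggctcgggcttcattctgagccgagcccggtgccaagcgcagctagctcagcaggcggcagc
ID3 (chr1:23559452-23559751, minus strand): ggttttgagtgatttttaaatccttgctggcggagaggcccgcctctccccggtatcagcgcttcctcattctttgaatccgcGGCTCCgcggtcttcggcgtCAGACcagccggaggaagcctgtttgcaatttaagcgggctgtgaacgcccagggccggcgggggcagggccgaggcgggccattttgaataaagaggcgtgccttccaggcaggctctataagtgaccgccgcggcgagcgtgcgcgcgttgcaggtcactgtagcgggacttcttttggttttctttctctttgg
ID4 (chr6:19837120-19837419, plus strand): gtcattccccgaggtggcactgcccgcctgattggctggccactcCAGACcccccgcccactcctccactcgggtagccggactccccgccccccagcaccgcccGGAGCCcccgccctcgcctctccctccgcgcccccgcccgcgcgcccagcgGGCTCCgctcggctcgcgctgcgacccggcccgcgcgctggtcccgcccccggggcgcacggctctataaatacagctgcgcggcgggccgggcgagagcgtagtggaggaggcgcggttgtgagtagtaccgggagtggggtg

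None of the 4 windows holds GGCGCC, which 19.2% of 35116 promoter windows of this length hold. GGAGCC occurs 2 times in ID1, 2 times in ID4 and 1 time in ID3, and in 36% of all windows. GTCTG occurs 1 time in ID3 and 1 time in ID4, and in 45.3% of all windows. GGAAA occurs 2 times in ID1 and in none of the other windows, and 61.2% of all windows hold it. The E-box CANNTG occurs 1 time each in ID2 and ID4, against 68.7% of all windows. TATAAA occurs in ID1 (2 overlapping matches on opposite strands) and in ID4, close before the start, against 11.5% of all windows. No other matches in the 4 windows overlap. CCAAT occurs 3 times in ID2, 1 time each in ID1 and ID4, and in 34.6% of all windows. The windows are rich in G and C, at 62.7% in ID1, 69% in ID2, 59.7% in ID3 and 76.3% in ID4, against a median of 58.7%. No SMAD or NFAT motif is thus common to the 4 windows, and the BMP-responsive region described for ID1 lies farther upstream than the letters shown. A match is a description of the letters and not a site of binding.

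ID1, the member most often used as a readout of BMP signalling, overlapped between the CSA, VCS and DMSO libraries and lay far above all of them in TAC. It was at 93.2, 93.5 and 86.7 CPM in the 3 TAC libraries, against 43.4, 42.3 and 33.1 CPM in DMSO. In CSA it was at 48.3, 36.9 and 27.5 CPM, and in VCS at 45.5, 42.3 and 32.6 CPM. The lowest TAC library was 1.79 times the highest of the other 9. The mean was 91.1 ± 3.86 CPM in TAC and 39.6 ± 5.64 CPM in DMSO (SD, n = 3 each), a log2 fold change of 1.20 (95% interval 0.81 to 1.59). Against CSA (37.6 ± 10.4 CPM) the log2 fold change of TAC was 1.28 (0.89 to 1.67), and against VCS (40.1 ± 6.7 CPM) it was 1.18 (0.79 to 1.57). In bulk RNA, a larger share of cells with the transcript and more transcript per cell cannot be told apart.

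ID3, which acts on the same partners as ID1, had the smallest relative spread of the 4 between replicates in CSA, VCS and DMSO. It was at 131.1, 134.5 and 152.6 CPM in TAC, against 96.9, 87.9 and 95.3 CPM in DMSO. In CSA it was at 87.5, 85.3 and 78 CPM, and in VCS at 82.3, 78.8 and 87.3 CPM. The TAC libraries again lay above all other libraries, with the lowest at 1.35 times the highest of the other 9. The log2 fold change of TAC was 0.58 against DMSO (95% interval 0.38 to 0.77), 0.74 against CSA (0.54 to 0.93) and 0.75 against VCS (0.56 to 0.95). The step of ID3 was smaller than that of ID1 on the log2 scale in all 3 of these comparisons, and the intervals of the 2 genes overlap for TAC against CSA and against VCS and not for TAC against DMSO.

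ID2, a partner of E proteins that also binds the retinoblastoma protein, had smaller log2 fold changes than ID1. It was at 20.3, 21.4 and 20.3 CPM in TAC, against 15.5, 14.1 and 10.3 CPM in DMSO. In CSA it was at 13.1, 12.3 and 8.11 CPM, and in VCS at 15, 12.4 and 9.01 CPM. The lowest TAC library was 1.31 times the highest of the other 9, the smallest such gap in the family. The log2 fold change of TAC was 0.63 against DMSO (95% interval 0.19 to 1.08), 0.89 against CSA (0.44 to 1.33) and 0.76 against VCS (0.32 to 1.21).

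ID4, best known from neural and breast epithelial differentiation, had the fewest counts of the 4. It had 91, 99 and 75 counts in TAC, 56, 42 and 29 in CSA, 32, 48 and 28 in VCS, and 39, 53 and 41 in DMSO. These counts correspond to 2.75, 2.94 and 2.3 CPM in TAC, 1.65, 1.34 and 0.84 CPM in CSA, 1.02, 1.45 and 1 CPM in VCS and 1.19, 1.63 and 1.35 CPM in DMSO. Counting alone gives an error of 10.1 to 11.5% for the TAC libraries and of 13.4 to 18.9% for the others. All 3 TAC libraries lay above all others, and the lowest was 1.4 times the highest of the other 9. The log2 fold change of TAC was 0.94 against DMSO (95% interval 0.37 to 1.5), 1.06 against CSA (0.49 to 1.63) and 1.19 against VCS (0.62 to 1.77).

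**Figure D1:**
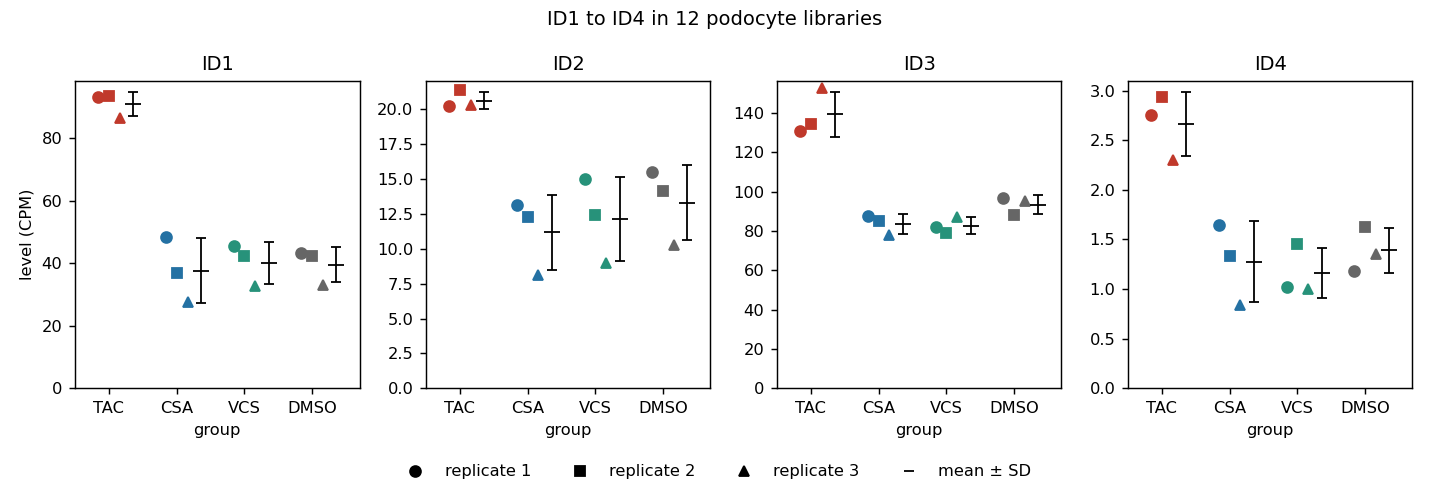
Level of each ID gene (y axis, CPM, from 0) in the 12 libraries by group (x axis: TAC, CSA, VCS, DMSO); symbols give the replicate number and the bar beside each group the mean ± SD of 3 libraries. In each panel the 3 TAC libraries lie above the other 9, by 1.79 times for ID1 and by 1.31 to 1.4 times for ID2, ID3 and ID4.

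Taking the family as a whole, all 4 members had no overlap between TAC and any other group. Over all 19784 genes, 5.99% had every TAC library above every DMSO library, 6.74% every TAC library above every CSA library and 4.12% every TAC library above every VCS library. TAC stood above all 9 other libraries for 0.93% of genes. At an adjusted p under 0.05, edgeR's quasi-likelihood test called 1 of the 4 (ID1) in TAC against DMSO, where 0.0354% of all genes were called and 0.0253% were called higher. It called 2 of the 4 (ID1 and ID3) in TAC against CSA, where 0.0303% were called and 0.0202% were called higher, and 1 of the 4 (ID3) in TAC against VCS, where 0.0253% were called and 0.0152% were called higher. Since these comparisons led to the choice of the family, nothing is read from the counts. The calls turned on single libraries. Without any 1 of the DMSO or TAC libraries, CSA 2 or VCS 2, 0 of the 4 were called against DMSO. Over all genes, those fits called 0 to 6 of 20299 to 20345 tested there, with 0 without TAC 2 or TAC 3. Without CSA 3 or without VCS 3, ID3 was called there as well, making 2 of the 4, beside 8 and 10 of all genes. Against CSA, ID1 was lost without DMSO 1, DMSO 2, CSA 2, CSA 3, VCS 2 or any TAC library, and ID3 without CSA 2, CSA 3 or any TAC library, so that the count was 0 to 2. Without CSA 2, CSA 3 or any TAC library, 0 of all genes were called against CSA. Without DMSO 1, DMSO 2 or VCS 2, 3 to 5 were. Against VCS, ID3 was lost without TAC 2, TAC 3 or VCS 2. ID1 was called as well there without DMSO 3, CSA 1 or CSA 3, so that the count was again 0 to 2. Over all genes, the calls against VCS were 0 without TAC 2 or VCS 2 and 2 without TAC 3. They were 5 to 10 where ID1 was called as well. The log2 fold changes moved less. Without single libraries ID1 in TAC against DMSO stayed between 1.09 and 1.27, ID3 between 0.51 and 0.62, ID2 between 0.48 and 0.76 and ID4 between 0.84 and 1.08.

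CSA, compared with DMSO, left no ID gene with a detectable difference. The log2 fold change was -0.08 for ID1 (95% interval -0.47 to 0.31, adjusted p = 0.965), -0.25 for ID2 (-0.70 to 0.20, adjusted p = 0.939), -0.16 for ID3 (-0.35 to 0.03, adjusted p = 0.939) and -0.12 for ID4 (-0.71 to 0.46, adjusted p = 0.961) by edgeR. None of the 4 was called by edgeR or by DESeq2, where edgeR called 0.0101% of all genes, and 0 had an unadjusted p under 0.05. ID3 was the 1 member without overlap: all 3 CSA libraries (78 to 87.5 CPM) lay under all 3 DMSO libraries (87.9 to 96.9 CPM). Over all genes 4.93% did the same. As a fold, the interval of ID1 spans 0.724 to 1.24.

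VCS, compared with DMSO, gave no detectable difference of an ID gene either. The log2 fold change was 0.02 for ID1 (95% interval -0.37 to 0.41, adjusted p = 0.996), -0.13 for ID2 (-0.58 to 0.32, adjusted p = 0.963), -0.17 for ID3 (-0.37 to 0.02, adjusted p = 0.963) and -0.26 for ID4 (-0.84 to 0.33, adjusted p = 0.963) by edgeR. None was called by edgeR or by DESeq2, where edgeR called 0.00505% of all genes, and 0 had an unadjusted p under 0.05. ID3 again had no overlap, at 78.8 to 87.3 CPM in VCS and 87.9 to 96.9 CPM in DMSO, as 4.16% of all genes did in this direction. Both comparisons use the same DMSO libraries, so the ID3 values of CSA and VCS are set against the same 3 libraries.

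VCS and CSA, which share the cyclosporine ring, did not differ detectably for any ID gene at the same concentration and time. No measure of calcineurin inhibition was used here, so equal concentration of the 3 drugs cannot be read as equal inhibition. VCS minus CSA was 0.10 for ID1 on the log2 scale (95% interval -0.29 to 0.49), 0.12 for ID2 (-0.33 to 0.57), -0.01 for ID3 (-0.21 to 0.18) and -0.13 for ID4 (-0.72 to 0.46), each with an edgeR adjusted p of 1. No member was called by edgeR or by DESeq2, where edgeR called 0.0101% of all genes, and 0 had an unadjusted p under 0.05. The interval of ID3 spans 0.866-fold to 1.13-fold and that of ID4 spans 0.606-fold to 1.38-fold. These intervals are not a limit of detection. With 3 libraries a group, larger differences also went uncalled. ID3 was at 1.49-fold in TAC against DMSO (edgeR adjusted p = 0.0522) and ID4 at 2.29-fold in TAC against VCS (adjusted p = 0.392).

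**Figure D2:**
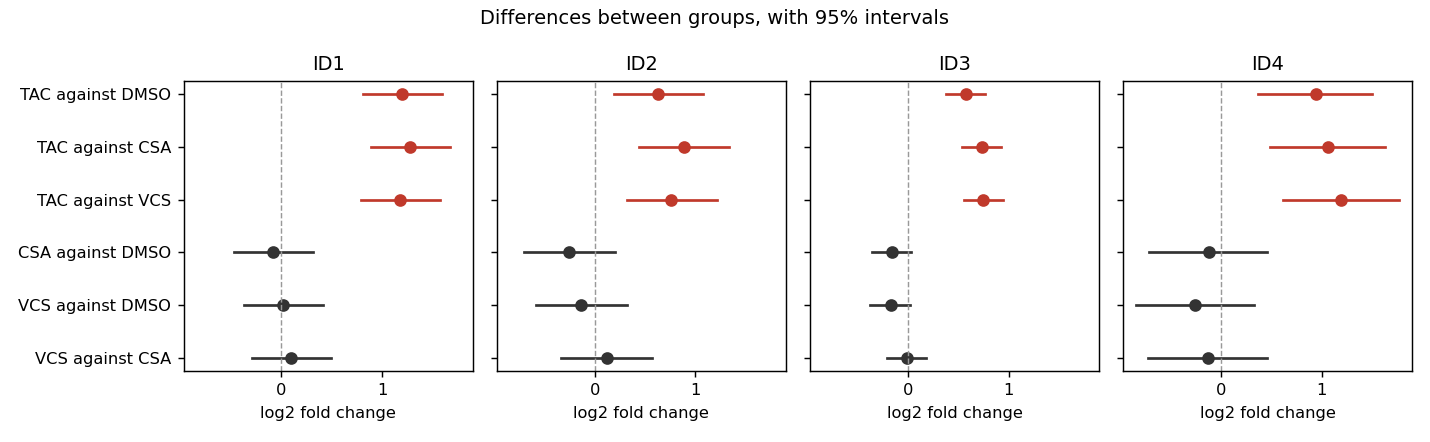
Log2 fold change (x axis) of ID1, ID2, ID3 and ID4 in 6 comparisons (y axis), each as the first-named group over the second; points are edgeR estimates and lines their 95% intervals. The 3 comparisons of TAC, in red, lie above 0 for all 4 genes (0.58 to 1.28), while the lines of the other 3 comparisons cross 0.

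TAC had the highest mean for all 4 genes, and the order of the other groups differed between genes. Outside TAC, ID1 averaged 37.6 ± 10.4 CPM in CSA, 40.1 ± 6.7 in VCS and 39.6 ± 5.64 in DMSO, steps smaller than their SDs (n = 3 each). ID2 averaged 11.2 ± 2.68 CPM in CSA, 12.1 ± 3.01 in VCS and 13.3 ± 2.69 in DMSO, also within the spread. ID3 averaged 83.6 ± 4.94 CPM in CSA, 82.8 ± 4.27 in VCS and 93.4 ± 4.79 in DMSO, so that CSA and VCS lay within each other's SD and under DMSO. ID4 averaged 1.27 ± 0.407 CPM in CSA, 1.16 ± 0.255 in VCS and 1.39 ± 0.224 in DMSO, within the spread.

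Between the genes, levels were compared per kilobase of exon, using the exon lengths of GENCODE 29 (1233 bases for ID1, 2205 for ID2, 1797 for ID3 and 2344 for ID4). In TAC, ID3 at 77.6 ± 6.43 and ID1 at 73.9 ± 3.13 CPM per kilobase did not differ beyond their SDs (n = 3). In DMSO, ID3 at 52 ± 2.67 CPM per kilobase stood above ID1 at 32.1 ± 4.57. The same held in CSA, with 46.5 ± 2.75 and 30.5 ± 8.47, and in VCS, with 46.1 ± 2.37 and 32.6 ± 5.43. ID2 followed with 9.36 ± 0.289 CPM per kilobase in TAC and 5.07 to 6.03 in the means of the other groups. ID4 came last, with 1.14 ± 0.139 in TAC and 0.495 to 0.593 in the other means.

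Within the groups, ID1 and ID2 deviated together, and this rested largely on the libraries numbered 3. The measure is each library's deviation from its own group mean in log2 CPM, which leaves out the differences between treatments. ID1 and ID2 had Pearson's r = 0.933 over the 12 libraries (exact permutation within groups over 1296 arrangements, two-sided p = 0.00154, adjusted over 6 pairs 0.00924) and Spearman's rho = 0.909 (exact permutation p = 0.00309, adjusted 0.0185). Without CSA 3 and CSA 1, the libraries farthest out in ID1, r was 0.956. Without the 4 libraries numbered 3, r was 0.543 over the other 8 and carries no p there. Over those 8, the other 5 pairs ran from -0.667 (ID3 and ID4) to 0.792 (ID2 and ID3). ID1 and ID2 were thus not the closest pair there. The permutation shuffles each group on its own, while 11 of 12 libraries correlated best with their own number across groups. Libraries of the same number may thus not be independent, and these p-values may be too small. On the same measure, the 5 genes closest to ID1 had r of 0.974 to 0.981, above that of ID2. The other 5 pairs had r of -0.112 to 0.691 and rho of -0.168 to 0.517, with adjusted p-values of 0.363 or more for r and 0.603 or more for rho by the same exact permutation. ID1 and ID4 had r = 0.691, and r = 0.278 without CSA 3 and CSA 1. ID1 and ID3 had r = 0.078.

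ID1 in the library numbered 3 was 0.928 times the mean of the other 2 in TAC, 0.644 times in CSA, 0.743 times in VCS and 0.773 times in DMSO. For ID2 the same ratios were 0.974, 0.639, 0.658 and 0.695, so both genes were lowest in the library numbered 3 of CSA, VCS and DMSO, and close to the others in that of TAC. For ID3 the ratios were 1.15, 0.903, 1.08 and 1.03, and for ID4 they were 0.81, 0.563, 0.808 and 0.96. These are the libraries with the largest mitochondrial share. Without them the log2 fold change of ID1 in TAC against DMSO was 1.12. The coefficient of variation of ID1 was 4.24% in TAC, against 27.8% in CSA, 16.7% in VCS and 14.2% in DMSO, and that of ID2 was 3.09%, 24%, 24.8% and 20.2% in the same groups. The part of the mitochondrial share in these values was not tested.

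**Figure D3:**
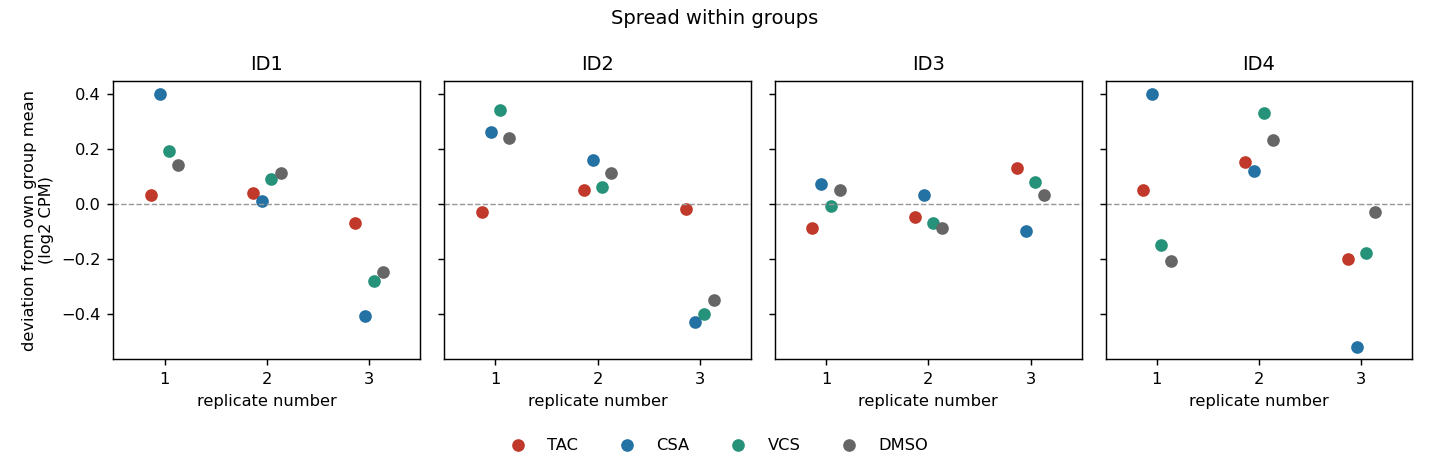
Deviation of each library from its own group mean (y axis, log2 CPM) by replicate number (x axis), for each ID gene, coloured by group. For ID1 and ID2 the CSA, VCS and DMSO libraries numbered 3 lie at -0.25 to -0.43, while the 3 TAC libraries stay within 0.07 of their mean, and for ID3 all libraries lie between -0.1 and 0.13.

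The counts of the 4 genes were also checked for reads that other genes could share. No stretch of 31 letters, the default word length of Salmon, was common to transcripts of any 2 of the 4 ID genes in GENCODE 29. ID1, ID3 and ID4 shared no such word with any other gene. ID2 had 4338 words over both strands, while transcripts of other genes were read on their own strand only. ID2 shared 79 words with the processed pseudogene ID2B (ENSG00000237456, on chromosome 3 in GENCODE 29), which had 0 counts in all 12 libraries, and 1 word with PCSK6. The 79 words are thus not to be taken as a share of the 4338. ID1 lies on chromosome 20 from 31605283 to 31606515 (GRCh38), ID2 on chromosome 2 from 8678845 to 8684453, ID3 on chromosome 1 from 23557918 to 23559794 and ID4 on chromosome 6 from 19837386 to 19840684. ID2 overlaps the antisense gene ID2-AS1, which had 9 to 39 counts a library where ID2 had 252 to 720. ID4 overlaps the antisense gene LNC-LBCS, with 1 to 17 counts. Whether the counting used strand is not stated, so reads of these overlaps cannot be told apart.

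The nearest tested genes that do not overlap the ID genes, all protein-coding, had no detectable difference between TAC and DMSO. Next to ID1, HM13 was at 406.8 ± 21.7 CPM in TAC and 416.3 ± 35 in DMSO, and the apoptosis regulator BCL2L1 at 347 ± 30.8 and 334.8 ± 36.1. Next to ID3, the cell cycle factor E2F2 was at 5.05 ± 0.842 CPM in TAC and 4.73 ± 1.03 in DMSO, and the ribosomal protein gene RPL11 at 373.2 ± 14.1 and 346.1 ± 31.3 (SD, n = 3 each). With RNF144A and KIDINS220 beside ID2 and RNF144B and MBOAT1 beside ID4, the 8 neighbours had log2 fold changes of -0.12 to 0.11 and edgeR adjusted p-values of 0.92 to 0.97. Their distances ran from 26698 to 1610559 bases. The overlapping antisense genes had larger estimates with wider errors, at 0.41 (SE 0.37, edgeR adjusted p = 0.92) for ID2-AS1 and 0.23 (SE 0.6, adjusted p = 0.961) for LNC-LBCS.

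The genes around the ID proteins were taken as 8 lists with 130 different genes, of which 102 were tested. The lists were chosen with earlier results of these data known. Counts and shares of their members in the comparisons of TAC are therefore a description, and nothing is concluded from them. None of the 102 was called by edgeR in any of the 6 comparisons, beside background shares of 0.00505 to 0.0354% of all genes. In TAC against DMSO, 14 of them (13.7%) had an unadjusted p under 0.05, 11 of these higher, against 919 of all genes (4.65%). In CSA against DMSO this was 1 gene (0.98%, against 3.75% of all genes) and in VCS against DMSO 7 (6.86%, against 3.27%). It was 17 in TAC against CSA (16.7%, against 7.52%), 14 in TAC against VCS (13.7%, against 3.63%) and 5 in VCS against CSA (4.9%, against 2.54%). DESeq2 called 3 of the 102 in TAC against DMSO (ATOH8, SMAD6 and SMAD9), the same 3 and SNAI1 in TAC against CSA and in TAC against VCS, and 0 in the 3 comparisons without TAC. Over all genes DESeq2 called 0.177% in TAC against DMSO, 0.222% in TAC against CSA and 0.187% in TAC against VCS, and 0.0404% in CSA against DMSO, 0.0253% in VCS against DMSO and 0.0556% in VCS against CSA.

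The E proteins, the binding partners of ID proteins, had no detectable difference. TCF3 was at 64.5 ± 1.32 CPM in TAC and 64.6 ± 3.15 in DMSO (log2 0.00, 95% interval -0.19 to 0.19), TCF4 at 15.5 ± 1.44 and 15 ± 2.16 (0.05, -0.20 to 0.30) and TCF12 at 58.4 ± 3.33 and 50.3 ± 7.27 (0.21, -0.07 to 0.49; n = 3 each). None passed, with edgeR adjusted p-values of 0.92 to 0.997. In CSA and VCS the 3 lay between -0.09 and 0.19 on the log2 scale against DMSO.

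Of 26 class II and other basic helix-loop-helix factors 8 were tested, 3 of them above 0 in TAC against DMSO (median log2 fold change -0.07, against 0.00 over all genes, of which 49% lay above 0). ATOH8, a factor that BMP signalling also induces, was at 33.6, 30.1 and 23.7 CPM in TAC, against 16.8, 15.1 and 12.9 CPM in DMSO. The 3 TAC libraries lay above all others, the highest of which were CSA 1 and VCS 1 at 17.9 CPM. Its log2 fold change was 0.96 in TAC (95% interval 0.59 to 1.33, edgeR adjusted p = 0.112), 0.08 in CSA and -0.08 in VCS. The mesoderm factor TWIST1 was at 11.9 ± 1.19 CPM in TAC and 12 ± 1.86 in DMSO, and MSC at 6.84 ± 0.17 and 8.03 ± 0.78 (SD, n = 3 each). Among HES, HEY and BHLHE repressors 8 of 12 were tested and 5 lay above 0 (median 0.14). The clock and hypoxia repressor BHLHE40 was at 91.1 ± 4.35 CPM in TAC and 70.3 ± 7.43 in DMSO (log2 0.37, 95% interval 0.17 to 0.58, edgeR adjusted p = 0.691), and the Notch target HES4 at 41.3 ± 6.1 and 54.6 ± 10.5 (-0.40, -0.83 to 0.03).

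Upstream of the ID genes, 12 of 15 tested BMP-SMAD signal transducers lay above 0 in TAC against DMSO (median 0.07). Among feedback and target genes of that pathway other than ID, 12 of 18 did (median 0.12). Over all genes, 49% lay above 0. The receptor SMAD gene SMAD5 was at 104.4 ± 6.73 CPM in TAC and 86.8 ± 8.93 in DMSO (log2 0.27, 95% interval 0.00 to 0.53), and the receptor gene BMPR2 at 82.9 ± 17.6 and 70.1 ± 14.4 (0.24, -0.20 to 0.68). The secreted BMP antagonist gene GREM1 was abundant and variable, at 1577.4 ± 433.2 CPM in TAC and 1464 ± 418 in DMSO (0.11, -0.44 to 0.65). TWSG1, which encodes a BMP-binding protein, differed by 0.12 (-0.16 to 0.41), KLF10 by 0.21 and the kinase gene HIPK2 by 0.01. SMAD9 differed by 0.84 (0.52 to 1.17, edgeR adjusted p = 0.112) and SMAD6 by 0.61 (0.39 to 0.84, adjusted p = 0.0861). Both are named outside the rule of abundance and lie toward the top of their lists. The transducers ran from -0.91 (ACVRL1) to 0.84 (SMAD9), and the feedback and target genes from -0.59 (MSX2) to 0.96 (ATOH8). None of these passed by edgeR. Of other reported inducers of ID transcription 9 of 15 lay above 0 (median 0.04), with KLF6 at 227.3 ± 5.32 CPM in TAC and 266.6 ± 13.2 in DMSO (-0.23, -0.42 to -0.04, edgeR adjusted p = 0.92; SD, n = 3 each). STAT3 differed by 0.01 and the hypoxia factor gene HIF1A by 0.11.

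Among other proteins that bind ID proteins or control their stability, 14 of 19 tested lay above 0 in TAC against DMSO (median 0.05), again beside 49% of all genes. PAX8, a kidney transcription factor that ID proteins can bind, was at 294.2 ± 37.9 CPM in TAC and 421.5 ± 62.8 in DMSO (log2 -0.52, 95% interval -0.86 to -0.17, edgeR adjusted p = 0.92; SD, n = 3 each). CAV1 differed by 0.04 and the ubiquitin ligase gene SMURF2 by 0.02. Of 18 tested genes that E proteins or ID proteins are reported to regulate, 12 lay above 0 (median 0.08), beside the same 49%. The matrix gene THBS1, which ID1 represses, was at 3398.4 ± 853.1 CPM in TAC and 2961.1 ± 804.9 in DMSO, and the cell cycle inhibitor gene CDKN1A at 1703.8 ± 115 and 1613.2 ± 285.1. Their log2 fold changes were 0.20 (-0.35 to 0.74) and 0.08 (-0.23 to 0.39).

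**Figure D4:**
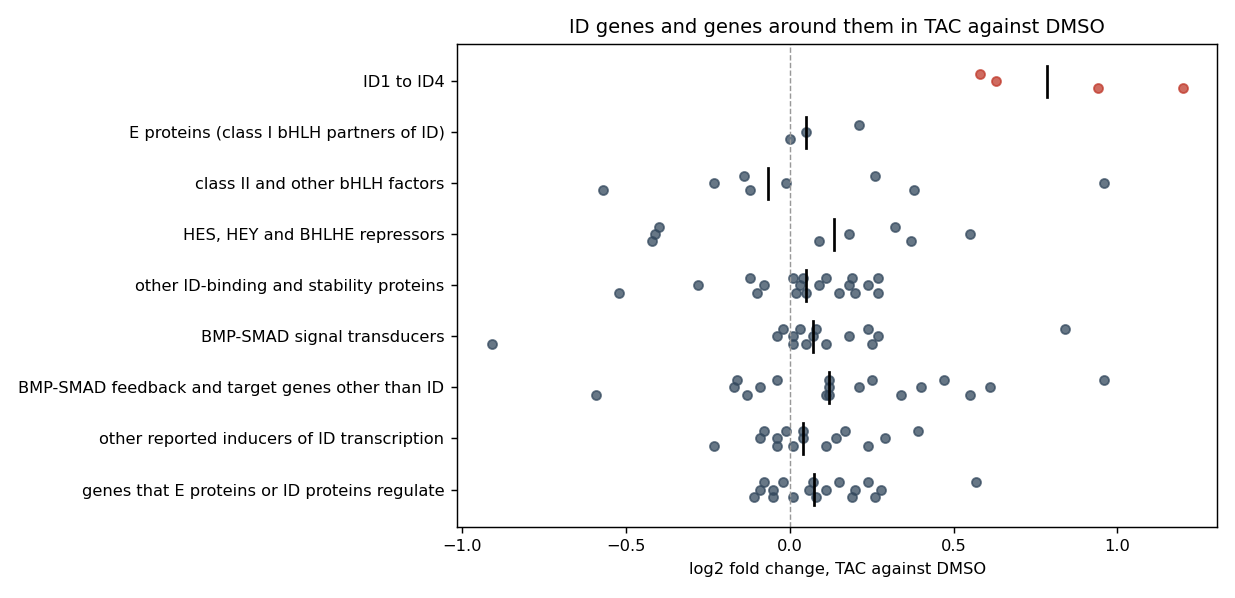
Log2 fold change in TAC against DMSO (x axis) of the 4 ID genes (red, top row) and of the tested members of the 8 lists (rows); each point is a gene and the black line the median of the row. The ID genes lie at 0.58 to 1.20, the list medians at -0.07 to 0.14, and the point of ATOH8 at 0.96 stands in 2 rows because it is in 2 lists.

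The genes whose levels followed the ID genes most closely over the 12 libraries were named by Pearson's r of log2 CPM, among 12950 or 12951 genes with a symbol and a mean log2 CPM of at least 1. The 3 TAC libraries stand apart from the others in all 4 ID genes, and the values describe likeness and carry no p. The closest to ID1 were SPDL1 (0.965), a spindle checkpoint gene, DEPDC1B (0.948), ID2 (0.942), SMAD9 (0.941), a receptor SMAD of the BMP pathway, and QPRT (0.938). The closest to ID2 were CNOT6 (0.946), ID1 (0.942), SNAI2 (0.938), TPM1 (0.931) and ELL2 (0.921). The closest to ID3 were SNAI1 (0.956), a repressor of epithelial genes, PPME1 (0.941), SAMD11 (0.934), SMAD6 (0.925), an inhibitory SMAD, and SPDL1 (0.908). The closest to ID4 were KRT7 (0.962), CCDC138 (0.959), IMPA1 (0.943), SMAD9 (0.925) and DEPDC1B (0.923). SMAD9 was at 12.8, 12.3 and 9.74 CPM in TAC, against 6.35, 7.13 and 5.97 CPM in DMSO, with all other libraries at 5.26 to 7.13 CPM. SNAI1 averaged 10.1 ± 1.64 CPM in TAC and 6.79 ± 0.425 in DMSO (SD, n = 3 each).

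Ranked on deviations from the group means, the genes closest to the ID genes were others. They were THAP4 (0.981), CNOT7 (0.981), MOB1A (0.977), YWHAZ (0.976) and ARPC2 (0.974) for ID1, and CAB39L (0.982), CNOT6 (0.971), STK24 (0.967), BLZF1 (0.965) and PCNP (0.962) for ID2. For ID3 they were SUGCT (0.906), PPP1R3F (0.904), FMC1 (0.902), FAM156B (0.88) and CLIC3 (0.877), and for ID4 LRR1 (0.986), NADK2 (0.972), RPS27A (0.966), NOL7 (0.962) and TRUB2 (0.96). CNOT6 was the 1 gene among the 5 closest to ID2 on both measures. The log2 fold changes of the 5 genes closest to ID1 by this measure ran from 0.04 to 0.19 in TAC against DMSO. THAP4 was at 22.8 ± 0.975 CPM in TAC and 22.3 ± 2.62 in DMSO, and MOB1A at 119.8 ± 3.63 and 104.7 ± 7.21 (SD, n = 3 each).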

How the data were processed

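Poly(A) RNA-seq gave 12 libraries. Per the submitters' processing notes, the authors used Salmon and the GRCh38 genome, with no versions named. The deposited values are expected counts per gene that the authors rounded to whole numbers, without normalization. Whether unique molecular identifiers were collapsed, and whether strand was used, is not stated, so intervals cover counting and replicate error of these counts only. Symbols came from a gene name table (62252 of 62262 identifiers matched) and positions from GENCODE 29 (18900 of the 19784 tested genes matched).

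Genes were kept with filterByExpr of edgeR 4.0.16 (R 4.3.3, minimum count 10), scaled by TMM and fitted with the quasi-likelihood test, using every library and no covariate beside group, leaving 8 residual degrees of freedom. P-values were adjusted by Benjamini-Hochberg over all tested genes within each comparison, with a threshold of 0.05. Levels are CPM on TMM-scaled library sizes. Correlations used log2 CPM with a prior count of 2. The test was tested on simulated data before use. The lowest and highest library totals were 28808213 and 36077072 counts. No 2 replicates agreed within sampling noise. The ID genes and the 8 lists were chosen with earlier results of these data known. Named besides the ID genes are the 3 most abundant tested members of each list, the nearest tested neighbours and the 5 closest genes by each measure of likeness. SMAD6 and SMAD9 were also given as list members. Some genes that this rule would name are not reported here. Alternatives were RLE scaling, no filter, DESeq2 1.42.0, separate fits of each pair of groups, a replicate block and each library left out; a fit without the libraries numbered 3 was added after seeing the data. Proteins are not shown.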

Additional observations from a re-analysis of the deposited data

How the results depend on the processing

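Every log2 fold change of TAC against another group stayed above 0 for the 4 ID genes under all alternatives run, at 1.06 to 1.5 for ID1, 0.48 to 1.02 for ID2, 0.51 to 0.79 for ID3 and 0.83 to 1.4 for ID4. How many ID genes passed moved with the model. With no filter on low counts, 3 passed in TAC against DMSO and 3 in TAC against VCS. In TAC against CSA 3 passed, in place of 2, with no filter, with the replicate block and with DESeq2. With replicate number as a block, 2 passed in TAC against DMSO and 3 in TAC against VCS, and with DESeq2 likewise 2 and 3. In a fit of only the groups compared, 0 passed in TAC against CSA and 0 in TAC against VCS. Without the 4 libraries numbered 3, 1 passed in TAC against CSA and 2 in TAC against VCS. With single libraries left out, 0 to 2 passed in each comparison of TAC and 0 in the others. The cause was not tested. List members that passed, in TAC against DMSO, CSA and VCS, numbered 4, 2 and 3 with no filter, 4, 5 and 5 with the replicate block and 3, 4 and 4 with DESeq2, and 0 to 1 (ATOH8) with single libraries left out. Same-numbered libraries correlated in their deviations by 0.01 to 0.53, and 11 of 12 correlated best with their own number, as a hint from the data; nothing in the sources ties the numbers to shared cultures.

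Over all genes, the calls under the settings of the report, no filter, the replicate block, DESeq2, only the groups compared and without the libraries numbered 3 were 7, 131, 41, 35, 1 and 3 in TAC against DMSO. They were 6, 87, 65, 44, 1 and 1 in TAC against CSA, and 5, 101, 41, 37, 0 and 9 in TAC against VCS. They were 2, 86, 6, 8, 2 and 0 in CSA against DMSO, 1, 69, 0, 5, 0 and 1 in VCS against DMSO, and 2, 70, 6, 11, 3 and 6 in VCS against CSA. RLE gave the same calls in number as TMM. With single libraries left out, the calls over all genes were 0 to 10 in TAC against DMSO. They were 0 to 6 in TAC against CSA and 0 to 12 in TAC against VCS.

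Some small differences between groups other than TAC changed sign. ID4 in CSA against DMSO was 0.09 without the libraries numbered 3. With single libraries left out, CSA against DMSO ran from -0.3 to 0.11 for ID1 and -0.35 to 0.11 for ID4, and VCS against DMSO from -0.09 to 0.14 for ID1 and -0.31 to 0.04 for ID2. VCS against CSA ran from -0.09 to 0.32 for ID1, -0.06 to 0.29 for ID2, -0.06 to 0.02 for ID3 and -0.36 to 0.1 for ID4. Other differences kept their sign under all alternatives run. ID3 stayed at -0.2 to -0.1 in CSA against DMSO and at -0.22 to -0.14 in VCS against DMSO. ID2 stayed at -0.4 to -0.06 in CSA against DMSO, and ID4 at -0.46 to -0.12 in VCS against DMSO. With 28 to 99 counts a library, ID4 is the member limited most by depth.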
